A study of Homo sapiens with 6 samples.

Results

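The cytosolic heat shock protein genes described here are HSPA1A, HSPA1B, HSPA8, HSPH1, HSP90AA1, HSP90AB1, HSPB1, DNAJB1, BAG3 and HSF1, 10 genes chosen by name. All 10 were found among the 12010 genes of the files, with 40 of the 30624 listed transcripts. They were measured by RNA sequencing in 92.1, an established line of human uveal melanoma, a pigment cell tumour of the eye. The solvent DMSO was given to 3 samples, and 3 others received LBH589 (panobinostat), an inhibitor of histone deacetylases, at 0.1 µM for 24 h. All samples are of this 1 line. No source names separate cultures, so a p-value here reflects the spread of these samples alone, and that spread may be technical.

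Heat shock proteins are chaperones, which help proteins fold and keep damaged proteins from clumping. HSP70 proteins (HSPA1A, HSPA1B, HSPA8) bind unfolded stretches of a protein. J-domain partners such as DNAJB1 hand over substrates, and exchange factors such as HSPH1 and BAG3 let the substrate go. HSP90 proteins (HSP90AA1, HSP90AB1) act later, on kinases and steroid receptors among others. HSF1 is the transcription factor of the heat shock response: under stress it forms trimers that bind heat shock elements, GAA units repeated in alternating orientation, in front of chaperone genes. HSPA1A, HSPA1B, HSPH1, HSP90AA1, HSPB1, DNAJB1 and BAG3 are known as stress-inducible, while HSPA8 and HSP90AB1 are the constitutive forms of unstressed cells.

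The upstream sequences of 5 genes that carry matches to this element are shown. They were picked to include genes that rose with LBH589, a gene that fell and a gene that did not pass the test. They come from the RefSeq promoter table (build GRCh38.p14), run 5′ to 3′ on the gene's own strand, and cover the 200 bases before a RefSeq transcription start, positions -200 to -1. The deposited files use the build hg19, and promoters were matched to genes by symbol alone. Capitals mark matches to GAANNTTC or TTCNNGAA, 2 GAA units in opposite orientation, where N is any base. Each motif is its own reverse complement, so both strands are covered, and the motifs can overlap.
HSPA1A (chr6:31815343-31815542, plus strand): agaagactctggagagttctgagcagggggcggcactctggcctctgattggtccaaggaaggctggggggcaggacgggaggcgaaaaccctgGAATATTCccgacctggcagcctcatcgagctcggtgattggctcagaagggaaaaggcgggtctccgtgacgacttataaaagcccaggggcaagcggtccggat
HSPA1B (chr6:31827538-31827737, plus strand): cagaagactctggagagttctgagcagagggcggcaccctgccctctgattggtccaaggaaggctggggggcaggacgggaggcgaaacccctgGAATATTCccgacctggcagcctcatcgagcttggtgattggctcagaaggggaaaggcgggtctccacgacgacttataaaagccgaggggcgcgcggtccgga
DNAJB1, start 2 (chr19:14518398-14518597, minus strand): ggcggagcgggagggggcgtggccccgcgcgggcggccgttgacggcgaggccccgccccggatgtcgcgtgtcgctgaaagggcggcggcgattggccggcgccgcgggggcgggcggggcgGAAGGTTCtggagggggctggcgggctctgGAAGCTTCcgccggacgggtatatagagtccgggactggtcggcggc
HSPA8 (chr11:123062137-123062336, minus strand): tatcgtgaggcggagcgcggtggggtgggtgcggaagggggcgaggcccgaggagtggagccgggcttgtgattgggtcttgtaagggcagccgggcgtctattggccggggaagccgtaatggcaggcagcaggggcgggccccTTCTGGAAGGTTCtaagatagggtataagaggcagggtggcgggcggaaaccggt
HSP90AA1, start 2 (chr14:102087045-102087244, minus strand): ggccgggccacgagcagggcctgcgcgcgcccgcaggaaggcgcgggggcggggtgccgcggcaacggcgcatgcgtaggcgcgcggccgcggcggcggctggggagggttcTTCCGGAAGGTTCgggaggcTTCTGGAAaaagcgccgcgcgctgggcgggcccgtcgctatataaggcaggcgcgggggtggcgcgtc

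The table held 14 starts of 9 of the 10 genes, and no start of HSF1 was analysed here. A match of 2 units lay within 250 bases upstream of 7 of the 14 starts, against 11.6% of all 35116 promoters. A run of 3 units (GAANNTTCNNGAA or TTCNNGAANNTTC, each of which contains matches of 2 units) lay at 3 starts, against 0.441% of all promoters. HSPA1A and HSPA1B each had 1 match of 2 units, at -106 to -99 and at -105 to -98, in upstream sequences 93.6% identical. DNAJB1 had 2 such matches at start 2, -77 to -70 and -47 to -40. HSPA8 had a run of 3 units at -55 to -43 and another at -230 to -218, outside the printed stretch. HSPA8-222, with 58.7% of HSPA8 FPKM under DMSO, begins 1750 bases downstream of the RefSeq start in GENCODE, so the window does not adjoin its start. HSP90AA1 had 1 run of 3 units at start 2, -88 to -76, and a match of 2 units at -68 to -61. HSP90AA1-201, with 80.5% of HSP90AA1 FPKM under DMSO, begins 147 bases upstream of that start in GENCODE, so both lie downstream of its own start. HSP90AB1 had 2 runs, -165 to -153 and -112 to -100, but at start 3, near which the minor transcript HSP90AB1-202 begins, and none at start 2, near which HSP90AB1-201 and HSP90AB1-203 begin. HSPB1 had 1 match of 2 units, at -182 to -175, and the letters were not found in the windows of HSPH1 and BAG3. HSPH1-201 and HSPH1-202, which held 35.1 and 59.5% of HSPH1 FPKM under DMSO, begin 461 bases downstream of the RefSeq start in GENCODE, so the window searched does not adjoin their start. A match describes letters and is no evidence of binding.

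**Figure D1:**
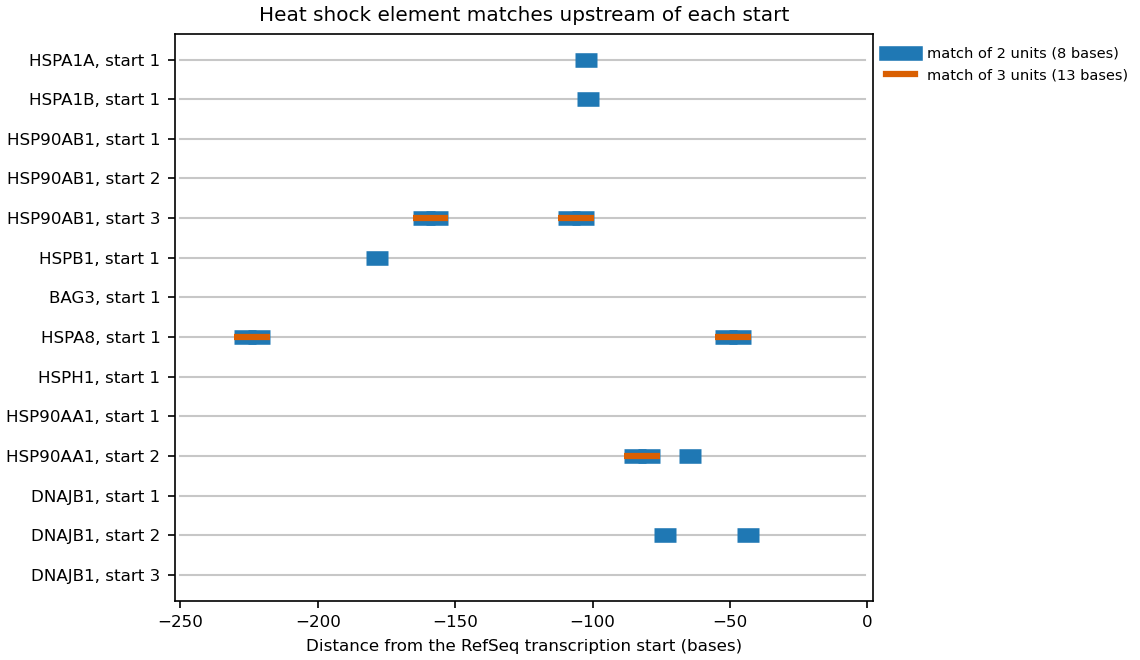
Matches to the heat shock element in the 250 bases before each of 14 RefSeq transcription starts (y axis, 1 grey line per start; x axis, bases from the start). Blue marks are matches of 2 units and orange marks runs of 3 units, which lie at HSPA8, at start 2 of HSP90AA1 and at start 3 of HSP90AB1.

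Values are FPKM, fragments scaled to transcript length and library size, summed over the listed transcripts of a gene. The sum over all genes lay between 397174 and 422630.0 FPKM per DMSO library and between 355148 and 367222 FPKM per LBH589 library, of which mitochondrially encoded genes held 35.2 to 45.8%. No counts were used, and the absolute depth is unknown. Low values piled up at a step in 4 libraries. If a step means equal fragments, depth relative to DMSO replicate 1 was 1.11 in DMSO replicate 2 and 0.816 in DMSO replicate 3. For LBH589 replicate 3 it was 0.991. These depths are rough, as the step held 21, 17 and 30 transcripts in DMSO replicates 1, 2 and 3 and 11 in LBH589 replicate 3. The next fullest interval of values held 13, 10, 13 and 8. All 8 melanocyte markers checked were listed, with a summed level of 2531 to 2672 FPKM under DMSO and 721 to 776 FPKM under LBH589; their part in the results was not tested. Most of that sum was TYRP1, at a mean of 1796 and 499.6 FPKM. In 6 of the 8 markers every LBH589 library was below every DMSO library, while PMEL (means 274 and 200.03 FPKM) and S100B (1.24 and 2.14 FPKM) overlapped. Of 5 fibroblast markers COL1A1 and LUM were listed, together at 1.47 to 2.52 and 4.23 to 5.55 FPKM. Of 3 epithelial markers EPCAM was listed, at 0.190 to 0.452 and 0.692 to 1.12 FPKM, and 0 of 3 endothelial and 0 of 3 immune markers were matched to a listed transcript. In bulk samples fewer cells of a type and less RNA per cell cannot be told apart.

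After 24 h of LBH589 the inducible HSP70 genes HSPA1A and HSPA1B were 2.09-fold and 2.05-fold higher and their J-domain partner DNAJB1 was 4.42-fold higher, as ratios of mean FPKM. The constitutive HSPA8 was 4.29-fold lower, HSPH1 3.04-fold lower and HSP90AB1 1.44-fold lower. HSP90AA1, HSPB1, BAG3 and HSF1 did not pass the test. The test was limma on log2(FPKM + 1) over the 11520 genes that average 0.5 FPKM or more, called at a Benjamini-Hochberg adjusted p below 0.05, and all 10 heat shock genes were tested. Thus 6 of the 10 were called, where 48.8% of all tested genes were; 3 rose, against 27.2%, and 3 fell, against 21.6%. The groups did not overlap in 7 of the 10, against 59.5% of tested genes, so these counts are near the background of the treatment. Log2 fold changes are LBH589 minus DMSO of log2(FPKM + 1), where the added 1 shrinks the change of low genes. Their median was 0.07 over the 10 genes and 0.08 over all tested genes, and equal library sums moved the latter to 0.22.

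**Figure D2:**
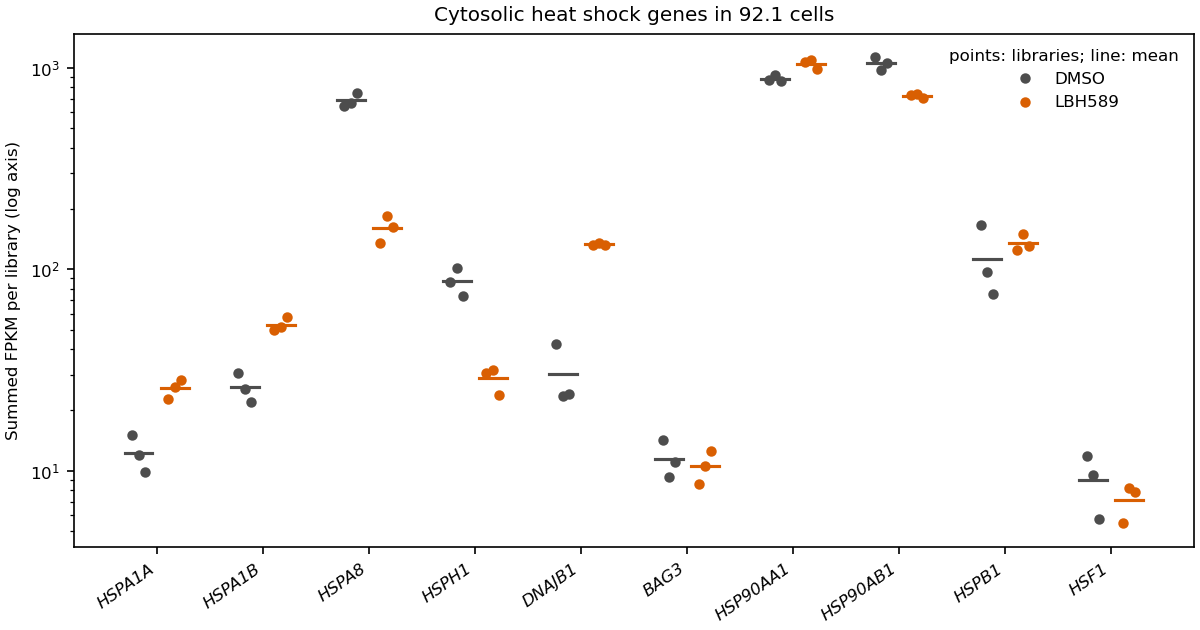
Summed FPKM (y axis, log scale) of the 10 heat shock genes (x axis) in each DMSO library (grey points) and LBH589 library (orange points), 3 per group, with a line at the group mean. The LBH589 points lie above all DMSO points for HSPA1A, HSPA1B, DNAJB1 and HSP90AA1, below them for HSPA8, HSPH1 and HSP90AB1, and overlap them for HSPB1, BAG3 and HSF1.

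HSPA8 (HSC70) is the HSP70 protein of unstressed cells, used in folding, clathrin uncoating and chaperone-mediated autophagy. It measured 647, 667 and 749 FPKM in the DMSO libraries and 135, 183 and 162 FPKM in the LBH589 libraries. The lowest DMSO library was more than 3 times the highest LBH589 library. HSPA8 fell from 688 ± 53.7 to 160.2 ± 24.0 FPKM (SD, n = 3 each), a log2 fold change of -2.10 (SE 0.14, limma adjusted p = 1.12e-04). Falls of at least 4-fold on that scale were called in 2.71% of tested genes. By mean FPKM HSPA8 ranked 43 of 11520 genes under DMSO and 180 under LBH589.

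HSPA1A and HSPA1B, neighbours on chromosome 6, encode the stress-inducible HSP70. HSPA1A measured 15.0, 11.9 and 9.89 FPKM in the DMSO libraries and 22.8, 25.9 and 28.3 FPKM in the LBH589 libraries. HSPA1B measured 30.5, 25.3 and 21.9 FPKM in the DMSO libraries and 49.7, 51.9 and 57.8 FPKM in the LBH589 libraries. Both genes were higher in each treated library than in any control library. HSPA1A rose by 1.02 on the log2 scale (SE 0.17, limma adjusted p = 0.00362) and HSPA1B by 1.02 (SE 0.14, limma adjusted p = 0.00173), where rises of at least 2-fold were called in 13.2% of tested genes. Their transcripts HSPA1A-201 and HSPA1B-201 are 89.4% identical, and 72.6% of all stretches of 50 bases of HSPA1A-201 occur unchanged in HSPA1B-201. The split of fragments between these genes is therefore uncertain. Their sum, free of that split, went from 38.2 ± 6.88 to 78.8 ± 6.83 FPKM (SD, n = 3 each). Fitted as 1 gene, a choice made after seeing the data, HSPA1A and HSPA1B rose by 1.04 (SE 0.15, limma adjusted p = 0.00212). HSPA1A-201 and HSPA1B-201 share 0 stretches of 50 bases with HSPA8-222, the most abundant HSPA8 transcript.

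The inducible and the constitutive HSP70 genes thus changed in opposite directions in the same libraries. HSPA1A and HSPA1B together held 6.57, 5.28 and 4.08% of the FPKM of the 3 HSP70 genes in the DMSO libraries and 34.9, 29.8 and 34.7% in the LBH589 libraries. The mean share was 5.31 ± 1.24% and 33.1 ± 2.87%, a difference of 27.8 percentage points (SD, n = 3 each; p = 0.1 in a two-sided exact permutation test, which 3 against 3 samples cannot go below). A share within a library does not depend on how libraries are scaled. HSPA8 stayed the larger part in every library, at 18.6 times the inducible pair under DMSO and 2.03 times under LBH589 (mean of the ratios of the 3 libraries). The FPKM of all 3 genes together was 726 ± 47.6 under DMSO and 239 ± 27.8 under LBH589 (SD, n = 3 each, exact permutation p = 0.1), most of it HSPA8 in both groups.

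Of the HSP90 genes, HSP90AA1, the inducible form, measured 867, 918 and 859 FPKM in the DMSO libraries and 1065, 1089 and 981 FPKM in the LBH589 libraries. The groups did not overlap, yet the log2 fold change of HSP90AA1, 0.24 (95% interval 0.00 to 0.49), did not pass (limma adjusted p = 0.0884). HSP90AA1 passed with equal library sums (0.42, limma adjusted p = 0.0132) and after quantile normalization (0.41, limma adjusted p = 0.0381). It did not pass with equal library sums without mitochondrially encoded genes (0.29, limma adjusted p = 0.0576) or with equal medians (0.22, limma adjusted p = 0.135). Over all alternatives its limma adjusted p ran from 0.0132 to 0.721. HSP90AB1, the constitutive form, measured 1129.9, 975 and 1051 FPKM in the DMSO libraries and 733, 744 and 708 FPKM in the LBH589 libraries. Every treated library lay below every control. HSP90AB1 fell from 1052 ± 77.3 to 728 ± 18.1 FPKM (SD, n = 3 each), a log2 fold change of -0.53 (SE 0.10, limma adjusted p = 0.00677).

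HSP90AA1 held 43.4, 48.5 and 45.0% of the FPKM of both HSP90 genes in the DMSO libraries and 59.2, 59.4 and 58.1% in the LBH589 libraries. HSP90AB1 was thus the larger part in each control and HSP90AA1 in each treated library, by gene sums. The mean share of HSP90AA1 was 45.6 ± 2.60% and 58.9 ± 0.734% (SD, n = 3 each; two-sided exact permutation, again p = 0.1). HSP90 in sum was at 1933 ± 55.8 FPKM under DMSO and 1773 ± 74.8 FPKM under LBH589, a ratio of 1.09 (exact permutation p = 0.1), where the ratio of the HSP70 sums was 3.04. The FPKM sum of a whole library was itself lower under LBH589, at a mean of 361610 against 409742 under DMSO. HSP90 as a share of that library sum was not tested. With the most abundant transcript of each gene the HSP90 shares overlapped (difference 17.8 percentage points, exact permutation p = 0.3), and in DMSO replicate 2 HSP90AA1-201 was at 763 FPKM and HSP90AB1-203 at 387 FPKM.

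**Figure D3:**
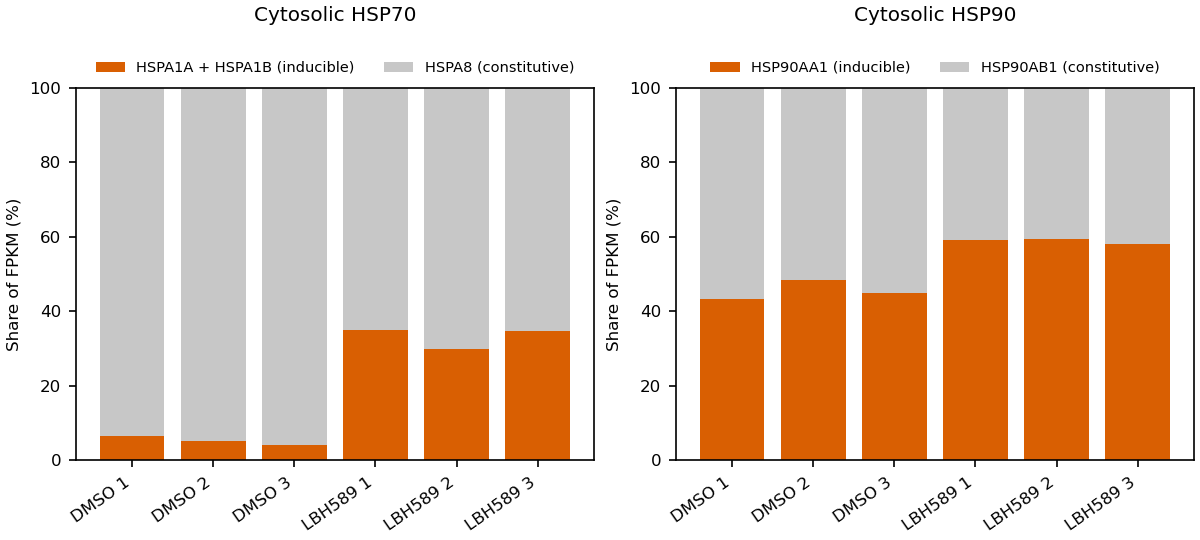
Share of FPKM (y axis, percent) held by the inducible gene or genes (orange) and the constitutive gene (light grey) of HSP70, left, and HSP90, right, in each of the 6 libraries (x axis). The orange part of HSP70 is 4.08 to 6.57% in the DMSO libraries and 29.8 to 34.9% in the LBH589 libraries, and that of HSP90 is larger in every LBH589 library than in any DMSO library.

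Among the partners of HSP70, DNAJB1 (HSP40), whose J domain stimulates the HSP70 ATPase, measured 42.7, 23.4 and 24.1 FPKM in the DMSO libraries and 132, 134 and 132 FPKM in the LBH589 libraries. DMSO replicate 1 was the highest control and still far below the treated libraries, which were almost equal. DNAJB1 rose from 30.1 ± 10.9 to 133 ± 1.27 FPKM (SD, n = 3 each), a log2 fold change of 2.16 (SE 0.23, limma adjusted p = 6.87e-04), where rises of at least 4-fold were called in 2.8% of tested genes. Exons of DNAJB1 overlap those of the opposite-strand gene TECR in GENCODE release 29, and no source used here says whether strand was counted. TECR measured 16.2 ± 7.85 and 10.3 ± 4.73 FPKM under DMSO and LBH589 and did not pass (limma adjusted p = 0.344). WDR20 exons overlap those of HSP90AA1 on the opposite strand. SNORD14C and SNORD14D overlap exons of HSPA8, and AL671762.1 those of HSPA1B, on the same strand. The part of these overlaps in the values was not tested.

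HSPH1 (HSP105), an HSP110 protein that exchanges the nucleotide of HSP70, measured 86.8, 102 and 73.3 FPKM in the DMSO libraries and 30.7, 31.6 and 23.8 FPKM in the LBH589 libraries. All treated libraries were below all controls, and HSPH1 was the 1 gene of the 7 inducible ones that fell. Its log2 fold change was -1.57 (SE 0.17, limma adjusted p = 6.47e-04), where falls of at least 2-fold were called in 10.7% of tested genes. BAG3, an exchange factor that directs HSP70 clients to autophagy, measured 14.1, 9.26 and 11.1 FPKM in the DMSO libraries and 8.57, 10.5 and 12.5 FPKM in the LBH589 libraries. The BAG3 groups overlapped, and the 95% interval of its log2 fold change, -0.59 to 0.37, holds a fall and a rise (limma adjusted p = 0.677).

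HSPB1 (HSP27), a small heat shock protein that holds unfolded proteins in large oligomers, measured 165, 97.4 and 75.2 FPKM in the DMSO libraries and 125, 149 and 130.1 FPKM in the LBH589 libraries. DMSO replicate 1 was above all 3 treated libraries, and the other controls were below them. The log2 fold change of HSPB1 was 0.33 (95% interval -0.36 to 1.03, limma adjusted p = 0.381). Without DMSO replicate 1 HSPB1 passed (0.64, limma adjusted p = 0.0215), and over all alternatives its adjusted p ran from 0.0215 to 0.809.

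HSF1, the regulator, had the lowest mean FPKM of the heat shock genes in both groups. Among all 11520 tested genes it ranked 4788 under DMSO and 5572 under LBH589. It measured 11.8, 9.51 and 5.74 FPKM in the DMSO libraries and 5.49, 8.19 and 7.88 FPKM in the LBH589 libraries. The groups overlapped, and the log2 fold change of HSF1, -0.26 (95% interval -0.92 to 0.41), did not pass (limma adjusted p = 0.475). RNA levels do not show whether HSF1 protein was active. HSF1 exons overlap those of the opposite-strand gene DGAT1, which measured 1.12 ± 0.0441 and 1.58 ± 0.485 FPKM under DMSO and LBH589 and did not pass (limma adjusted p = 0.230).

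By mean FPKM under DMSO the genes ranked HSP90AB1, HSP90AA1, HSPA8, HSPB1, HSPH1, DNAJB1, HSPA1B, HSPA1A, BAG3 and HSF1. The libraries of HSPB1 and HSPH1 overlapped there, as did those of DNAJB1 and HSPA1B, of HSPA1A and BAG3, and of BAG3 and HSF1. Under LBH589 they ranked HSP90AA1, HSP90AB1, HSPA8, HSPB1, DNAJB1, HSPA1B, HSPH1, HSPA1A, BAG3 and HSF1. There HSPB1 overlapped both HSPA8 and DNAJB1, and HSPH1 overlapped HSPA1A. Together the 10 genes held 2909.9 ± 89.3 FPKM under DMSO and 2326 ± 93.2 FPKM under LBH589 (SD, n = 3 each, exact permutation p = 0.1). As a share of the FPKM of all named genes they held 0.712 ± 0.0436% and 0.644 ± 0.0230% (exact permutation p = 0.1). DMSO replicate 2, at 0.673%, was just above LBH589 replicate 2, at 0.671%. Without mitochondrially encoded genes the shares were 1.23 ± 0.0385% and 1.01 ± 0.0227% (exact permutation p = 0.1).

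Single transcripts were tested in the same way. Of the 40 heat shock transcripts 38 were tested; 2 rose, HSPA1A-201 and HSPA1B-201, and 3 fell, HSPA8-222, HSPA8-210 and HSPH1-201, where 8.62% of 27042 tested transcripts rose and 7.33% fell (15.9% in all). The groups did not overlap in 13 of the 38, against 36.9% of tested transcripts. The calls of HSPA1A-201 (limma adjusted p = 0.0220) and HSPH1-201 (0.0372) are fragile. HSPA1A-201 did not pass without DMSO replicate 2 or 3 or without any 1 LBH589 replicate, with a limma adjusted p over all alternatives of 0.0130 to 0.107. HSPH1-201 did not pass without any 1 DMSO replicate, without LBH589 replicate 2 or 3, or with pseudocount 0.1 (all alternatives 0.0250 to 0.113).

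HSPA8-222 (ENST00000534319.5_1) held 58.7% of HSPA8 FPKM under DMSO and 61.0% under LBH589. It measured 417, 393 and 400.0 FPKM in the DMSO libraries and 101, 101 and 91.1 FPKM in the LBH589 libraries, and it fell by 2.04 on the log2 scale (SE 0.08, limma adjusted p = 3.22e-04). It begins 1750 bases downstream of the RefSeq start in GENCODE. HSPA8-212 (ENST00000528292.5_1), which begins 12 bases from the RefSeq start of the printed sequence, measured 182, 224 and 258 FPKM in the DMSO libraries and 0, 64.6 and 54.9 FPKM in the LBH589 libraries. HSPA8-212 did not pass (limma adjusted p = 0.203) but did without LBH589 replicate 1, where it is listed at 0 (0.0143; all alternatives 0.0143 to 0.346). HSPA8-210 measured 7.46, 10.2 and 11.4 FPKM in the DMSO libraries and 0, 0.0600 and 0 FPKM in the LBH589 libraries.

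For DNAJB1 the split between transcripts differed from library to library, while the total was steady within the LBH589 group. DNAJB1-202, which begins near start 1, measured 28.2, 0 and 15.9 FPKM in the DMSO libraries and 76.8, 91.9 and 0.839 FPKM in the LBH589 libraries. DNAJB1-201, which begins near start 2, whose sequence is printed above, measured 12.8, 22.0 and 7.88 FPKM in the DMSO libraries and 51.2, 39.5 and 129 FPKM in the LBH589 libraries. Each DNAJB1-201 value under LBH589 was above those under DMSO, but the test did not pass (log2 fold change 2.20, SE 0.56, limma adjusted p = 0.0528). DNAJB1-201 passed with equal library sums (0.0414) and among features averaging 5 FPKM or more (0.0365; all alternatives 0.0365 to 0.164). When the most abundant transcript stood for each gene, DNAJB1-201 stood for DNAJB1 and passed, adjusted over genes (limma adjusted p = 0.0321). DNAJB1-202 did not pass (limma adjusted p = 0.650). The rise of DNAJB1 is therefore shown for the gene, while for start 2 the call depended on the setting and for start 1 none was made.

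HSP90AB1 was split unevenly too. HSP90AB1-203 measured 1111, 387 and 1024 FPKM in the DMSO libraries and 344, 414 and 410.0 FPKM in the LBH589 libraries. HSP90AB1-201, which begins at the same base in GENCODE, measured 10.3, 508 and 19.6 FPKM in the DMSO libraries and 356, 223 and 270.2 FPKM in the LBH589 libraries. DMSO replicate 2 was unlike the other controls in this split, though not in the gene sum. Neither passed (limma adjusted p = 0.202 for HSP90AB1-203, log2 fold change -0.97, and 0.321 for HSP90AB1-201, 2.51). Without DMSO replicate 2 HSP90AB1-203 passed at -1.46 (0.00884; all alternatives 0.00884 to 0.388) and HSP90AB1-201 at 4.19 (0.00909; all alternatives 0.00909 to 0.576). HSPH1-202 measured 48.2, 59.6 and 48.1 FPKM in the DMSO libraries and 21.7, 20.9 and 0 FPKM in the LBH589 libraries, and in the library where it is listed at 0 HSPH1-209 measured 17.2 FPKM. When the most abundant transcript stood for each gene, HSPH1 (-2.73) and HSP90AB1 (-0.97) did not pass (limma adjusted p = 0.166 and 0.146). Under all other alternatives the adjusted p of HSPH1 ran from 5.20e-04 to 0.00343 and that of HSP90AB1 from 0.00392 to 0.0490.

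**Figure D4:**
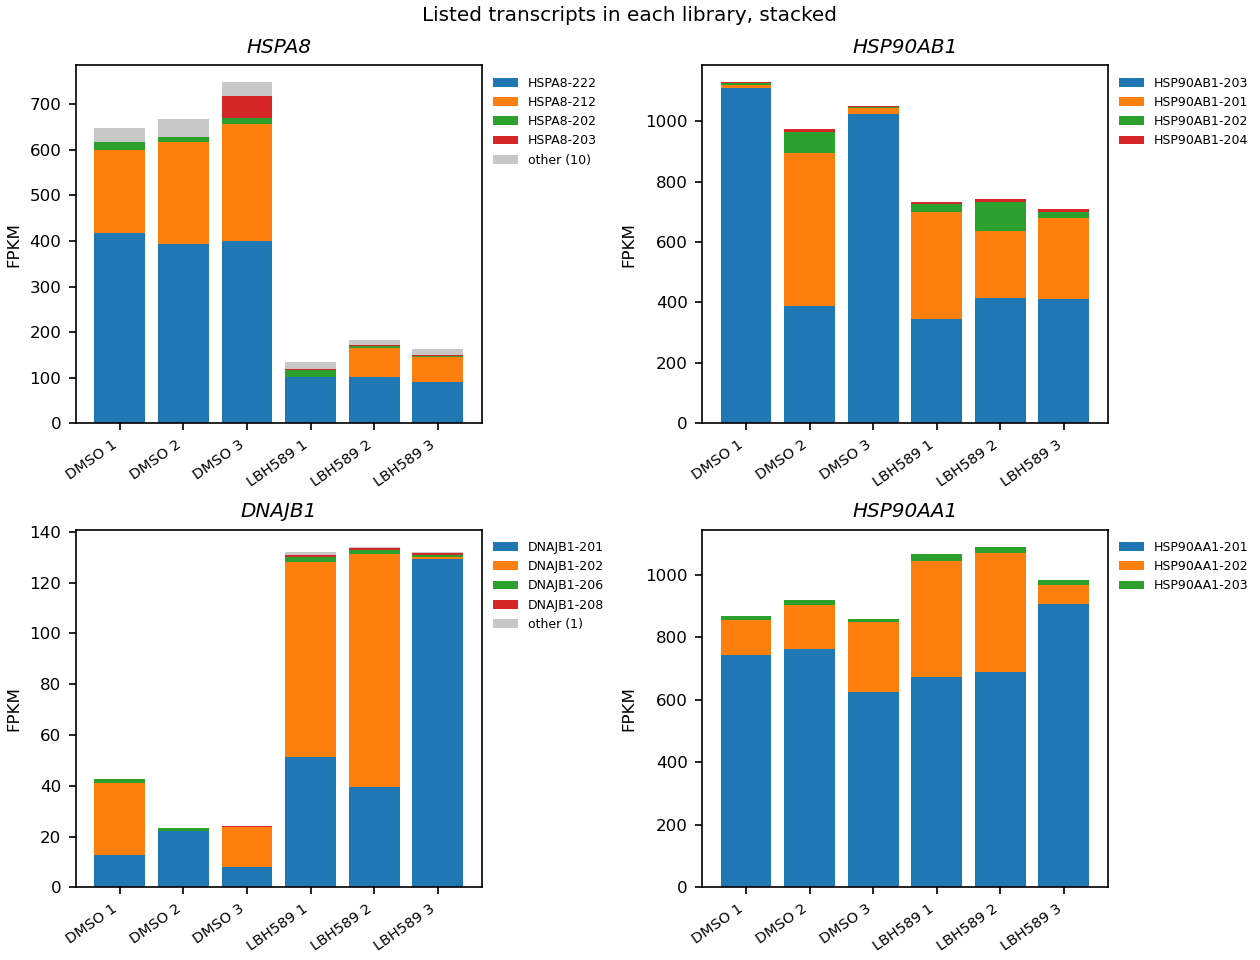
FPKM (y axis) of the listed transcripts of HSPA8, HSP90AB1, DNAJB1 and HSP90AA1, stacked for each of the 6 libraries (x axis); colours are up to 4 most abundant transcripts and light grey is the sum of the others. The split of HSP90AB1 in DMSO replicate 2 and that of DNAJB1 in LBH589 replicate 3 differ from those of the other libraries of the same treatment.

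The wider chaperone network was described in 9 lists, in which 13 of 82 tested genes stand in 2 lists, so the counts are not independent of each other. Each count is given as rises and falls beside the share of all tested genes. Of 9 other HSP70 and HSP110 family genes 6 were tested, of which 3 rose and 2 fell (against 27.2% and 21.6% of all tested genes; median log2 fold change 0.78). HSPA13, an HSP70 of the endoplasmic reticulum, rose from 23.4 ± 2.87 to 45.2 ± 1.497 FPKM and HSPA4L from 7.15 ± 1.71 to 14.2 ± 0.531 FPKM. HSPA12A, named after its value was seen, rose from 4.03 ± 0.942 to 6.70 ± 0.369 FPKM. HSPA14, a ribosome-associated HSP70, fell from 30.3 ± 1.63 to 14.8 ± 1.203 FPKM, and HSPA4, an HSP110 protein like HSPH1, fell from 113 ± 9.94 to 79.4 ± 3.601 FPKM (SD, n = 3 in each group). HSPA4 did not pass after quantile normalization (limma adjusted p = 0.0516; all alternatives 0.00695 to 0.0516). HSPA12A did not pass without DMSO replicate 2, LBH589 replicate 1 or LBH589 replicate 2, or with the most abundant transcript (all alternatives 0.00656 to 0.316). HSPA2, named after its value was seen, measured 69.9, 5.29 and 7.83 FPKM in the DMSO libraries and 43.9, 43.9 and 48.9 FPKM in the LBH589 libraries and did not pass (limma adjusted p = 0.198). Its DMSO replicate 1 was above all LBH589 libraries and its other controls far below them, and without that library 4 genes of this list rose. HSPA6, a strictly inducible HSP70, was looked for but was not matched to a listed transcript.

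Of 12 tested other J-domain proteins 2 rose and 5 fell (16.7% and 41.7%, against 27.2% and 21.6% of all tested genes; median log2 fold change -0.55). Most genes of this list are of the DNAJA and DNAJB classes, while most of its falls were of the few DNAJC genes chosen for it. These shares therefore do not describe J-domain proteins as a class. DNAJC9, which also binds histones, fell from 19.1 ± 1.36 to 5.25 ± 0.0703 FPKM. DNAJC7 fell from 62.1 ± 7.16 to 25.5 ± 4.78 FPKM, and DNAJA1, an abundant HSP70 partner, fell from 227 ± 12.6 to 152 ± 7.11 FPKM. DNAJC8 fell from 84.6 ± 11.5 to 49.7 ± 2.96 FPKM. DNAJB4, a relative of DNAJB1 named after its value was seen, rose from 18.9 ± 1.61 to 33.7 ± 9.73 FPKM, and did not pass without DMSO replicate 2 (limma adjusted p = 0.0675; all alternatives 0.0108 to 0.0675). Of 9 HSP70 exchange and binding factors 0 rose and 2 fell in limma (0% and 22.2%, against 27.2% and 21.6% of all tested genes; median -0.40), with 0 rises at an unadjusted p below 0.05 as well and 1 with equal library sums. BAG2 fell from 10.5 ± 1.69 to 3.63 ± 0.248 FPKM, and ST13, which bridges HSP70 and HSP90, fell from 193 ± 21.1 to 122 ± 0.951 FPKM (SD, n = 3 in each group). STIP1 (HOP), another such bridge, at 118 ± 6.73 and 89.0 ± 16.1 FPKM, did not pass (limma adjusted p = 0.0533) and did in 3 of 17 alternatives, as without LBH589 replicate 3 (0.0133; all alternatives 0.0133 to 0.260). BAG1, at 3.18 ± 2.44 and 1.02 ± 0.247 FPKM, did not pass (limma adjusted p = 0.100).

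Of 18 HSP90 cochaperones 5 rose and 5 fell (27.8% and 27.8%, against 27.2% and 21.6% of all tested genes), and their median log2 fold change of -0.04 turned to 0.14 with equal library sums. The rises numbered 3 without LBH589 replicate 3. FKBP4, a steroid receptor cochaperone, fell from 41.7 ± 5.82 to 15.9 ± 0.179 FPKM, while FKBP5, the other immunophilin of these complexes, rose from 2.62 ± 0.0623 to 6.84 ± 0.173 FPKM. NUDC fell from 68.1 ± 9.48 to 38.7 ± 2.25 FPKM and SUGT1 rose from 13.8 ± 3.30 to 34.4 ± 1.93 FPKM (SD, n = 3 in each group). Of 14 genes of the chaperonin TRiC and of prefoldin, which fold actin and tubulin, 0 rose and 5 fell in limma (0% and 35.7%, against 27.2% and 21.6% of all tested genes; median -0.31), with 0 rises at an unadjusted p below 0.05. With equal library sums 1 rose and 3 fell; the falls numbered 3 without LBH589 replicate 2 or 3 and 2 with the most abundant transcript. PFDN4 fell from 60.8 ± 4.38 to 27.4 ± 2.47 FPKM and CCT5 fell from 176 ± 12.7 to 107 ± 6.09 FPKM. CCT6A fell from 96.1 ± 5.28 to 60.9 ± 1.11 FPKM, and did not pass with the most abundant transcript (limma adjusted p = 0.103; all alternatives 0.00112 to 0.103). CCT4, at 75.8 ± 5.46 and 59.8 ± 4.86 FPKM, passed narrowly (limma adjusted p = 0.0382) and did not pass in 11 of 17 alternatives, among them leaving out any 1 library other than DMSO replicate 2 (all alternatives 0.0295 to 0.289). Of 3 tested other small heat shock proteins 0 rose and 1 fell in limma (0% and 33.3%, against 27.2% and 21.6% of all tested genes), with 0 rises and 2 falls at an unadjusted p below 0.05. HSPB7 fell from 2.98 ± 0.769 to 0.292 ± 0.265 FPKM. CRYAB, at 2.16 ± 1.25 and 1.27 ± 0.148 FPKM, and HSPB11, at 35.5 ± 2.79 and 28.8 ± 1.80 FPKM, did not pass. With the most abundant transcript HSPB7 did not pass (limma adjusted p = 0.244; all alternatives 5.41e-04 to 0.244) and HSPB11 did (0.0309; all alternatives 0.0309 to 0.373). HSPB11 also passed without DMSO replicate 1 (0.0491), and CRYAB passed without DMSO replicate 2 (0.0407; all alternatives 0.0407 to 0.743).

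Of 19 tested other known targets of HSF1, 4 rose and 8 fell (21.1% and 42.1%, against 27.2% and 21.6% of all tested genes; median log2 fold change -0.57). SERPINH1, the collagen chaperone HSP47, fell from 28.9 ± 10.1 to 2.20 ± 0.464 FPKM (SD, n = 3 each), a log2 fold change of -3.19 (SE 0.26, limma adjusted p = 2.14e-04). HSPD1 and HSPE1, the mitochondrial HSP60 and its partner HSP10, fell from 374 ± 17.1 to 175 ± 32.7 FPKM and from 60.6 ± 6.33 to 26.9 ± 3.35 FPKM. The targets that rose included DNAJB4, HSPA4L and UBB, a polyubiquitin gene named after its value was seen, which rose from 11.2 ± 1.35 to 17.8 ± 3.18 FPKM. Rises among the targets numbered 1 without DMSO replicate 2 and 2 without DMSO replicate 3, with 9 falls in both cases. UBB did not pass without DMSO replicates 2 or 3 or LBH589 replicates 2 or 3 (limma adjusted p over all alternatives 0.00978 to 0.474). With the most abundant transcript of each gene 2 targets rose and 4 fell, and UBB and SERPINH1 did not pass (SERPINH1 0.141; all alternatives 1.18e-04 to 0.141).

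Of 9 mitochondrial chaperones 0 rose and 3 fell in limma (0% and 33.3%, against 27.2% and 21.6% of all tested genes): HSPA9 and the HSPD1 and HSPE1 already counted among the HSF1 targets, with 1 rise at an unadjusted p below 0.05 and 2 with equal library sums. HSPA9 fell from 185 ± 18.8 to 75.0 ± 9.54 FPKM. TRAP1, the mitochondrial HSP90, at 53.2 ± 10.3 and 38.1 ± 2.79 FPKM, did not pass (limma adjusted p = 0.0534) and did in 4 of 17 alternatives, as without DMSO replicate 3 (0.0164; all alternatives 0.0164 to 0.731). Of 5 tested genes of the HSF family and its binding proteins 1 rose and 2 fell (against 27.2% and 21.6% of all tested genes). HSF2, another heat shock factor, rose from 5.88 ± 0.580 to 9.06 ± 0.573 FPKM. HSBP1, which binds HSF1 trimers, fell from 18.1 ± 0.867 to 13.5 ± 0.561 FPKM, and its relative HSBP1L1 fell from 27.1 ± 3.28 to 1.28 ± 0.184 FPKM (SD, n = 3 in each group). HSF2BP, at 0.526 ± 0.201 and 0.675 ± 0.255 FPKM, did not pass (limma adjusted p = 0.553). HSBP1 did not pass without LBH589 replicate 2 (0.0550) or with equal library sums (limma adjusted p = 0.108; all alternatives 0.0123 to 0.108).

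**Figure D5:**
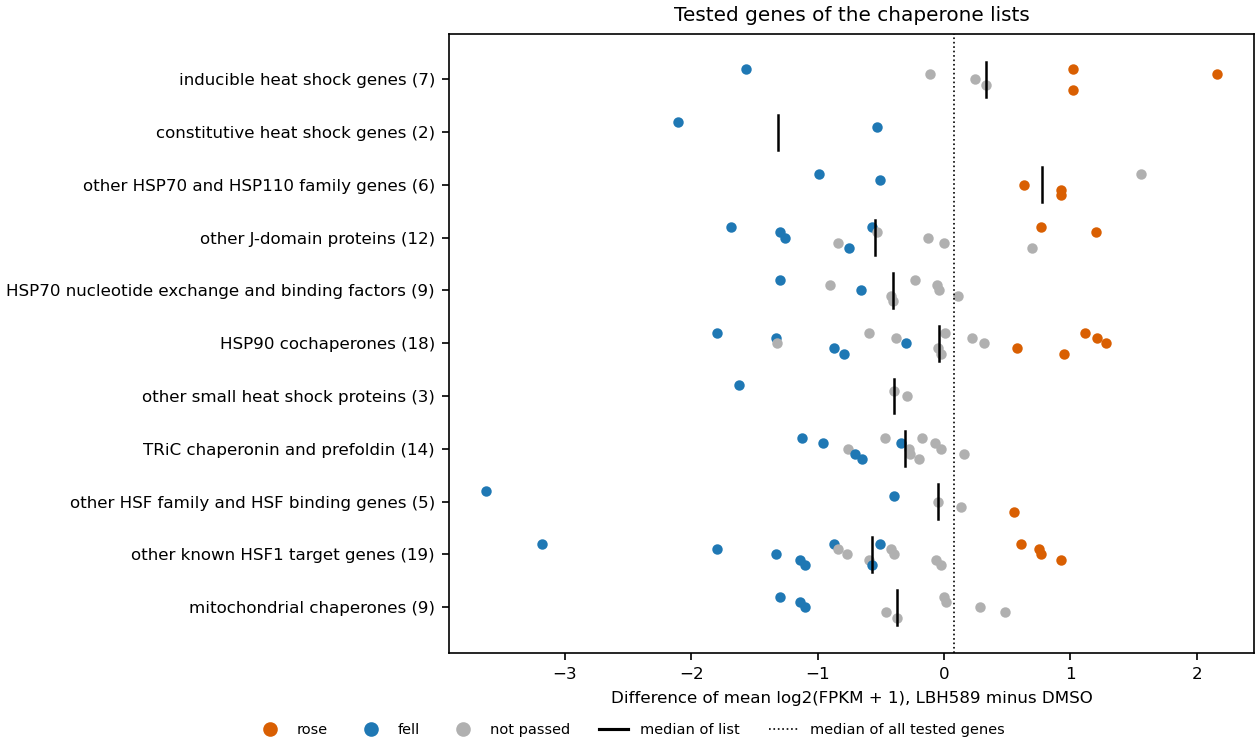
Log2 fold change (x axis, LBH589 minus DMSO on the log2(FPKM + 1) scale) of each tested gene in the chaperone lists (y axis, number tested in brackets); orange points rose, blue points fell and grey points did not pass in limma. Short black lines are list medians and the dotted line is the median of all tested genes, 0.08; the inducible heat shock genes spread from -1.57 to 2.16.

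For comparison, 10 housekeeping genes had log2 fold changes of -0.91 to 1.497. Of these 2 rose and 3 fell (20% and 30%, against 27.2% and 21.6% of all tested genes). Both ends of the range are called genes, so it is not a range of unchanged genes. HSPA8, HSPH1 and DNAJB1 lay outside that range and the other 7 heat shock genes inside it. The genes whose log2(FPKM + 1) over the 6 libraries was most like that of summed HSPA1A and HSPA1B were SIPA1L3, MYLIP and CALCOCO1 (Pearson r 0.999, 0.998 and 0.998). Those most like HSPA8 were HSD17B11, NAP1L4 and RAVER2 (r 0.998 each). An r of 0.95 or more was reached by 1020 and 1178 of 11510 genes, and the 6 points share libraries and form 2 treatment groups, so these values only describe.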

How the data were processed

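RNA was harvested with Trizol and sequenced from TruSeq libraries, according to the labels. The authors deposited FPKM per transcript, per the file headers, 1 file a library. Bowtie 0.12.2 and hg19 appear in the submitters' processing notes with no role stated; what quantified the transcripts, on which annotation and with which filter, is not stated there. Every listed transcript averages 0.500 FPKM or more in 1 group.

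Names came from GENCODE release 29 (120 transcripts stayed unnamed), and FPKM was summed per gene, which adds values divided by different lengths. Genes averaging 0.5 FPKM or more were tested with limma 3.58.1 (R 4.3.3, statmod 1.5.0) on log2(FPKM + 1), using trend, robust moderation and treatment alone, with Benjamini-Hochberg adjustment over all of them. Exact permutation tests used scipy 1.17.1 and alignments edlib 1.3.9.post1. The fit was tested on simulated data in which far fewer genes changed than were called here. Its error rates in these data are not known from that test. With no counts used, no counting interval is given.

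The heat shock genes and all lists were chosen with earlier results of these data known. In each list the genes named are up to 4 with the smallest adjusted p, and others are marked; 1 gene's result is not reported here. Alternatives were pseudocount 0.1, no filter, averages of 5 FPKM or more, equal library sums (also without mitochondrial genes), equal medians, quantile normalization, limma lacking trend and robust moderation, the most abundant transcript, a replicate block and each library left out. Summing HSPA1A and HSPA1B was added after seeing the data.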

Additional observations from a re-analysis of the deposited data

How the results depend on the processing

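HSPA1A, HSPA1B, DNAJB1 and HSPA8 kept direction and call under every alternative run, with log2 fold changes of 0.89 to 1.19, 0.91 to 1.19, 2.01 to 2.43 and -2.20 to -1.92. Of 168 values of the 10 genes under alternatives, 5 moved across the threshold: HSPH1 and HSP90AB1 out of it with the most abundant transcript, HSP90AA1 into it with equal library sums and quantile normalization, and HSPB1 into it without DMSO replicate 1. Called heat shock genes numbered 6, and 4 to 7 under alternatives. With averages of 5 FPKM or more, where fewer features were tested, 3590 genes were called in place of 5617, and 2456 transcripts in place of 4313. Leaving out 1 library gave 2621 to 3797 called transcripts; the count was 2621, 2689 and 2712 without LBH589 replicates 1, 2 and 3. With the most abundant transcript HSPD1 had a log2 value of 1.66 (limma adjusted p = 0.640; all alternatives 7.83e-04 to 0.640) in place of -1.10; the cause was not tested.

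Whether replicate numbers pair the samples is not known. Deviations of same-numbered libraries from their group means correlated at -0.104, 0.0215 and -0.0350 across genes. With 3 libraries per group such values cannot show that pairing was absent. With a replicate block 4789 genes, 1204 transcripts and 6 heat shock genes were called, and HSPA1A-201, HSPA1B-201, HSPH1-201, DNAJB4, HSPA12A and UBB did not pass. The block changed no gene-level call of the heat shock genes. In the list of TRiC and prefoldin the falls numbered 4 with the block, in place of 5. Exact sign flips over the pairs gave p = 0.25 for the HSP70 and HSP90 shares, the smallest possible with 3 pairs. Without counts, the counting error of HSF1 and BAG3, the lowest of the heat shock genes by mean FPKM, is unknown.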
